A study of Mus musculus with 12 samples.

Results

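The auxiliary subunits of voltage-gated calcium channels were followed through the DNA methylomes of sorted mouse β cells. The set held 8 genes chosen by symbol, Cacna2d1, Cacna2d2, Cacna2d3, Cacna2d4, Cacnb1, Cacnb2, Cacnb3 and Cacnb4, of 21738 protein-coding genes that GENCODE annotates on mm39. Each gene was taken as its body plus 10 kb on either side. These windows held 20187 of 21730423 CpGs and 89 of 87689 merged hypomethylated regions (HMRs). An HMR is a run of CpGs with low methylation as segmented by the authors with MethPipe, and HMRs of the 4 pools of reads were merged where they overlapped. A region's level is the percent of its reads at CpGs that were methylated.

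The cells came from mice of the genotype Myt1cCre; Ngn3nCre; Rosa26eYFP, InsApple, which every group shared. Cre is split in these mice into parts driven by the progenitor genes Myt1 and Ngn3, so that eYFP+ cells descend from progenitors that expressed both (M+N+) and eYFP- cells from the others (M-N+). The Apple reporter is read from an insulin promoter. An eYFP- gate also takes any cell in which both parts of Cre were present without recombining the reporter. The sample titles name the negative and positive fractions by eGFP and the cell-type label reads all islet cells, whereas the study's methods describe eYFP and Apple sorting of β cells. The groups compared, 4 in all, were eYFP- and eYFP+ cells at postnatal day 2 (P2) and at postnatal day 60 (P60), with 2 libraries per subtype at P2 and 4 at P60, each library being a mix of cells from several sorts and mice.

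A voltage-gated calcium channel is built around a pore-forming α1 subunit, and in β cells the L-type channels carry the calcium that triggers insulin granule release. The α2δ subunits (Cacna2d genes) are extracellular glycoproteins, cut into α2 and δ parts, that raise the number of channels at the surface and bind gabapentin in some of their forms. The β subunits (Cacnb genes) are cytoplasmic proteins that hold the linker between the first repeats of α1, help the channel leave the endoplasmic reticulum and set its gating.

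The reads of each subtype and stage were pooled before deposit. Mean depth per CpG was 24.2 reads (eYFP-) and 24.4 reads (eYFP+) at P2, and 43.7 reads and 43.5 reads at P60. Levels therefore have no replicate error: their 95% Wilson intervals and the Fisher's exact tests on reads cover counting error only and compare pools of DNA, not mice. Single libraries were represented by the positions of their HMRs. The 4 P2 libraries held 57109 to 60950 HMRs over 2.04% to 2.16% of the genome, and the 8 P60 libraries 38052 to 49939 HMRs over 1.57% to 1.69%. All P2 libraries share a project number in their data names, P60 replicates 1 and 2 share another and P60 replicates 3 and 4 yet another, so that stage cannot be told apart from project and depth. On the X chromosome, HMRs covered 0.455% to 0.474% in the P60 libraries labelled female and 0.902% to 0.932% in those labelled male. The P2 eYFP+ libraries followed the same order (0.609% female, 1.02% male), whereas the P2 eYFP- library labelled female had 1.05% and that labelled male 0.579%, against their labels. The window of 500 bp on either side of the start had a median level of 7.79% and 6.41% over 9 β-cell genes in the P2 eYFP- and eYFP+ pools and of 2.04% and 2.35% at P60, with Ins1 at 28.3% and 35.1% at P2 against 7.87% and 5.74% at P60. Over 4 or 5 acinar genes the medians were 77.7% to 82.8%, over 4 endothelial genes 67.8% to 73.5% with Kdr alone at 0.811% to 2.09%, over 4 leukocyte genes 70.4% to 80.9%, over 4 alpha-cell genes 9.64% to 13.1% with Gcg at 54.6% to 62.3%, and over 2 delta-cell genes 7.74% in the P2 eYFP- pool, 8.62% and 8.67% at P60 and highest, at 10%, in the P2 eYFP+ pool. The acinar median of 82.8% is that of the P2 eYFP+ pool and includes Amy2a2, which had 1 read there and none in the other pools. A pool's level is an average over its cells, so a shift in the mix of cells and a shift within cells cannot be told apart, and the part of these marker differences in the results below was not tested.

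Where an HMR of the auxiliary subunit genes was called different between the ages, it was higher at P60 with a single exception, and none of the calls lay over a coding start of the 8 genes themselves. In the eYFP- pools 33 of 89 HMRs (37.1%) were called higher at P60, beside 27.4% of all merged HMRs, and 1 was called lower (1.12%, beside 3.16% of all). In the eYFP+ pools 29 of 88 tested HMRs (33.0%) were called higher, beside 26.1% of all, and 1 lower (1.14%, beside 4.09% of all). A call required an adjusted p under 0.05 in a two-sided Fisher's exact test, with Benjamini-Hochberg adjustment over all merged HMRs of the genome, and a difference of at least 10 percentage points. The median difference of the members was 6.90 points in eYFP- and 5.39 points in eYFP+ pools, against 2.84 and 2.29 points over all merged HMRs. The same 26 HMRs were called higher in both subtypes, which is 78.8% of the eYFP- calls and 89.7% of the eYFP+ calls, and the single HMR called lower was the same in both. The 7 HMRs over a coding start of the 8 genes themselves gave no call in either subtype, and of the 6 over a start of another gene 1 was called in each. Of the HMRs over no coding start, 32 of 76 (42.1%) were called higher in eYFP- pools and 28 of 75 (37.3%) in eYFP+ pools, beside 32.1% and 30.5% of all merged HMRs over no coding start. The regions were segmented from the pools that were then compared, so an HMR of the P2 pools alone was chosen for a low level at P2, and its call and p-value describe it and support nothing further. Such HMRs, in a P2 pool and in no P60 pool, numbered 28 of the 89 (31.5%, beside 24.0% of all merged HMRs) and gave 22 of the calls of a higher level in eYFP- and 21 in eYFP+ pools. Of the 54 HMRs found in pools of both stages, 11 (20.4%) were called higher in eYFP- and 8 (14.8%) in eYFP+ pools, beside 13.1% and 11.5% of all merged HMRs of this kind, with median differences of 3.07 and 2.74 points beside 1.43 and 0.978 points. The 7 HMRs of P60 pools alone, which were chosen for a low level at P60, held the single HMR called lower. No test was made of the members' shares against those of the genome. Of the 89 HMRs, 58 lay in introns, 21 overlapped an exon, 6 lay in a downstream and 4 in an upstream flank.

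**Figure D1:**
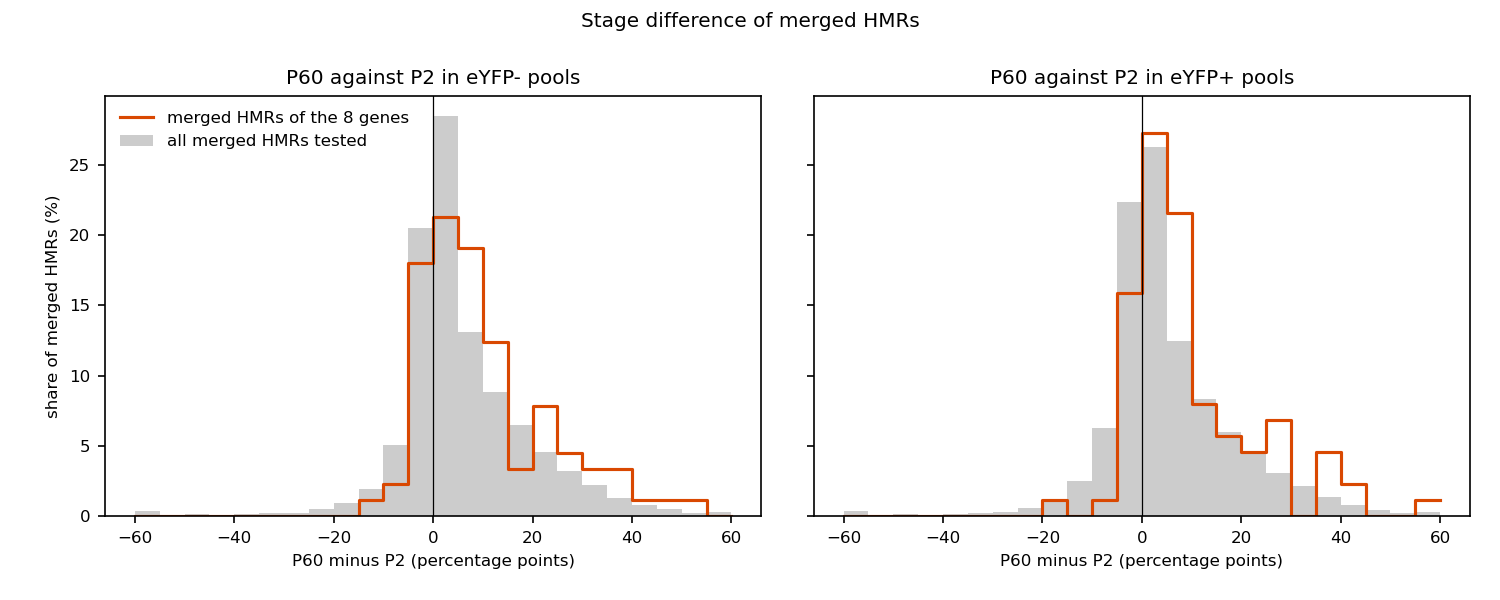
Distribution of the difference in methylation level, P60 minus P2 in percentage points, in eYFP- pools and in eYFP+ pools, as the percent of regions per bin of 5 points. Bars stand for all merged HMRs of the genome and the line for those of the 8 genes, values beyond the axis are counted in the outer bins, and the members' medians of 6.90 and 5.39 points lie right of the genome's 2.84 and 2.29 points.

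The coding starts of the auxiliary subunits fell into low and methylated ones. Of the 16 coding starts that remained after joining transcripts with near starts, 8 lay inside an HMR. Levels within 500 bp of these 8 starts ranged from 0.333% to 8.01% over the 4 pools, and those of the other 8 from 23.7% to 83.8%. Over 21007 canonical coding starts of the genome the medians were 5.07% to 5.49%, with 57.2% to 58.1% of starts under 10% and 27.5% to 28.2% over 50%. The canonical starts of members outside an HMR were those of Cacna2d4, Cacnb2 and Cacnb4, described with their genes.

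**Figure D2:**
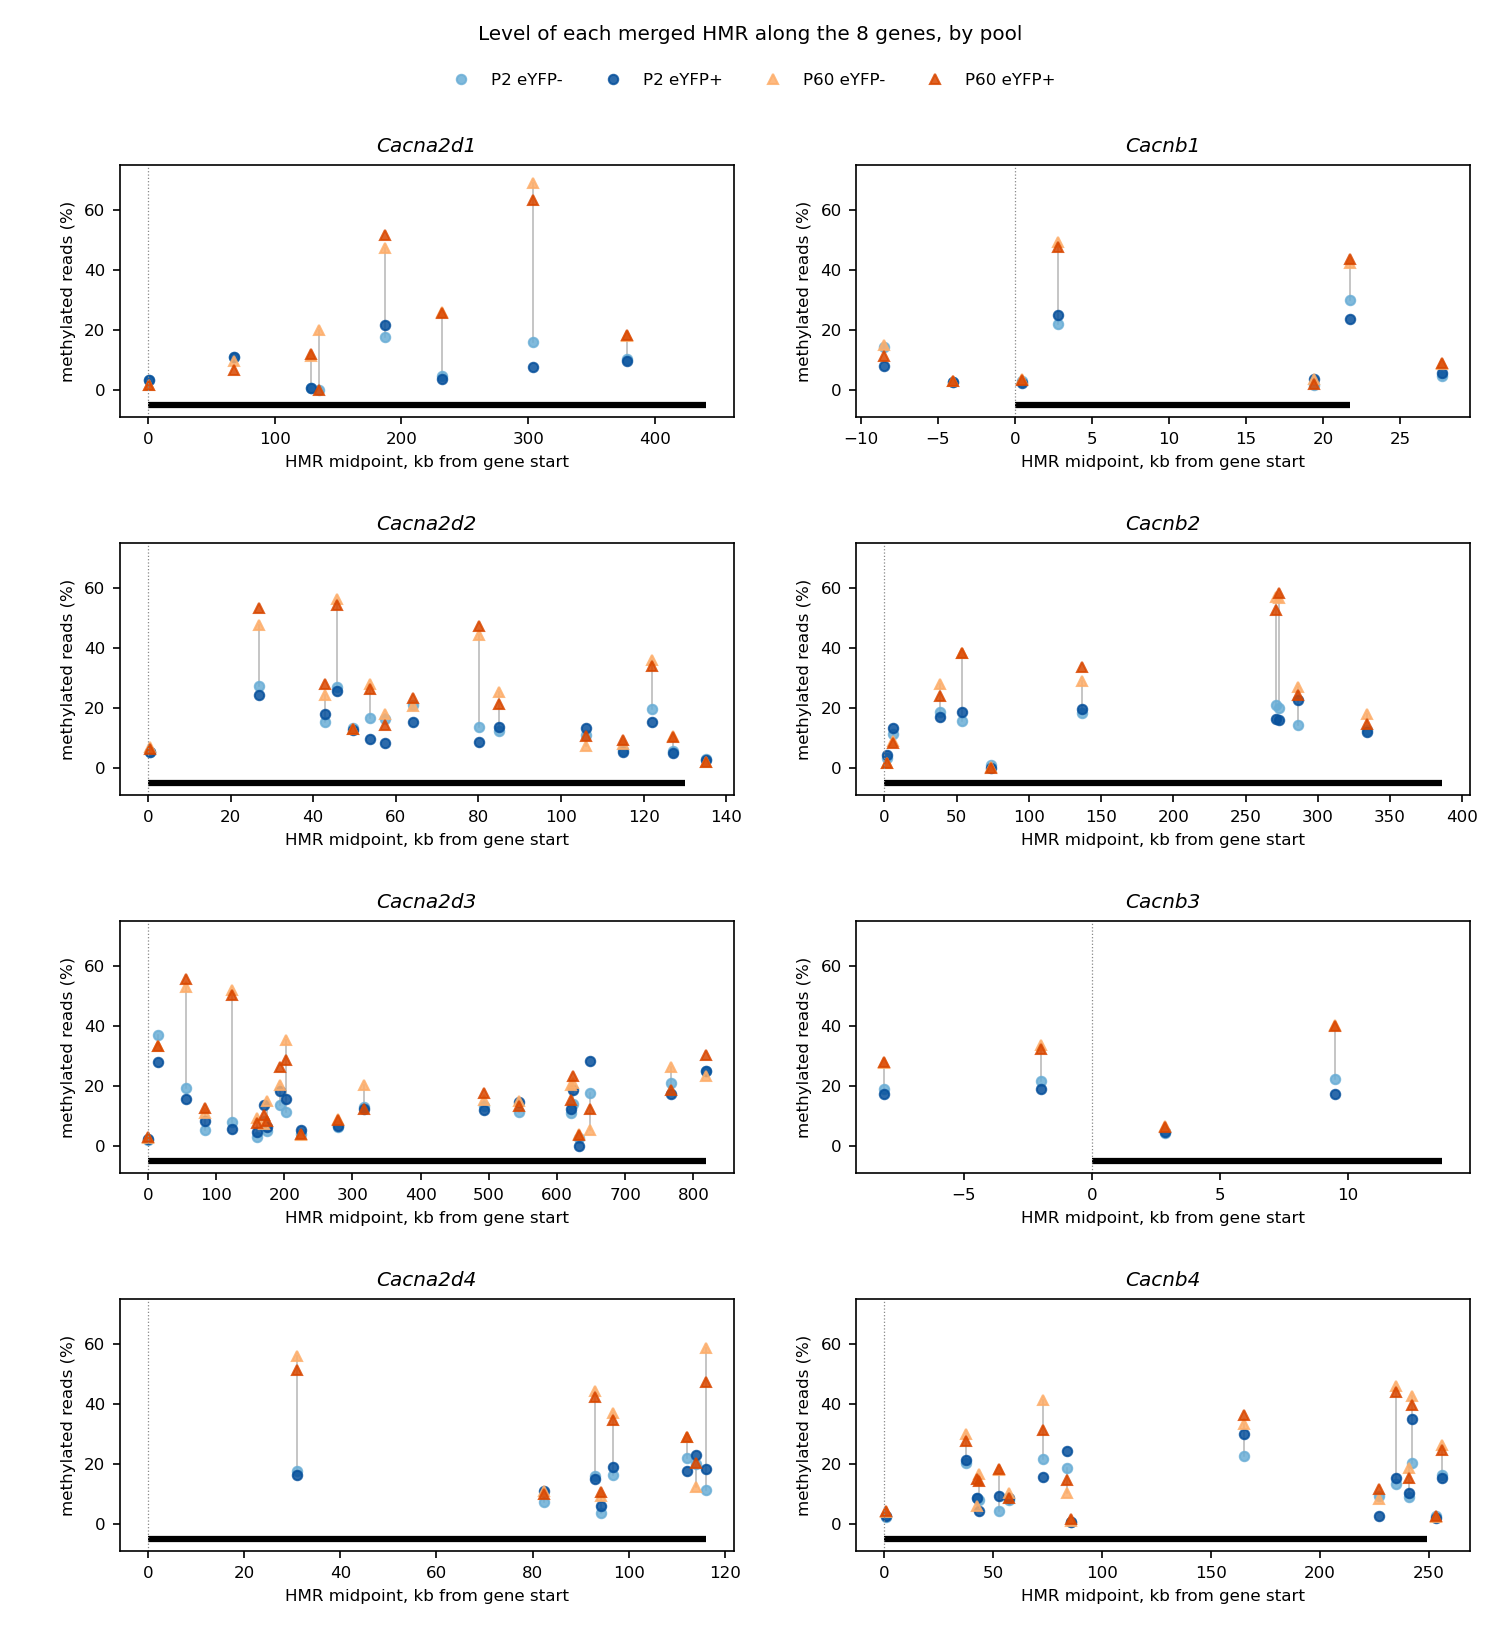
Level of every merged HMR of the 8 genes in the 4 pools, as methylated reads in percent, against the distance of its midpoint from the gene start in kb in the direction of transcription. Circles stand for P2 and triangles for P60, a grey line joins the P2 and P60 eYFP- values, the black bar is the gene body, and the HMRs at the first starts stay near 0 while many HMRs inside the genes lie higher at P60.

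Cacna2d1 encodes α2δ-1, a widely expressed form that binds gabapentin and whose loss in mice is known to reduce β-cell calcium current. Its single coding start (chr5:16139372, plus strand) had levels of 1.07% and 0.929% in the P2 eYFP- and eYFP+ pools and of 0.784% and 0.957% at P60. The HMR around it, chr5:16138691-16141566 with 175 CpGs, was at 3.37% and 3.46% at P2 and at 1.71% and 1.70% at P60, a difference under 10 points, and was present in all 12 libraries. Of the 8 HMRs of the gene 4 were called higher at P60, the same 4 in both subtypes and all in introns. The largest difference of the whole set was in intron 6, at chr5:16443124-16443527 with 5 CpGs, where levels of 15.9% and 7.63% at P2 stood against 68.9% and 63.5% at P60 (adjusted p = 3.99e-23 and 2.17e-25, Fisher's exact test). In intron 4, chr5:16370766-16371767 was at 4.51% and 3.55% at P2 and at 25.9% and 25.8% at P60. In both regions the P2 intervals lay wholly below those of P60, and the subtypes of a stage overlapped. The same direction was seen at 2 smaller HMRs of intron 3, chr5:16267840-16268134 with 0.595% and 0.758% at P2 against 11.4% and 11.9% at P60, and chr5:16326373-16326559 with 17.6% and 21.7% against 47.3% and 51.6%. These 4 regions differed in how the libraries showed them: the HMR of intron 4 was called in 4 of 4 P2 and 6 of 8 P60 libraries, that at chr5:16326373 in 3 P2 and no P60 libraries, and those at chr5:16443124 and chr5:16267840 in no library, so that they rest on the pools alone. The HMR at chr5:16443124 was found in the P2 eYFP+ pool alone and that at chr5:16326373 in P2 pools alone, so both were chosen for a low level at P2. Those at chr5:16370766 and chr5:16267840 were HMRs of all 4 pools.

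Cacna2d2 encodes α2δ-2, the cerebellar form that is lost in ducky mice. Its start (chr9:107276811, plus strand) was at 5.86% and 4.05% at P2 and at 8.01% and 7.64% at P60 in eYFP- and eYFP+ pools, and the HMR over it, chr9:107276340-107278458, at 5.33%, 5.29%, 6.87% and 6.49%, with no call. The gene held 15 HMRs, of which 9 were present in all 12 libraries. Calls of a higher level at P60 numbered 6 in each subtype, 5 of them shared. The clearest was the HMR of intron 3 at chr9:107356811-107357041, 80.1 kb from the start. Its 11 CpGs had 13.7% methylated reads (interval 10.2 to 18.1, 292 reads) and 8.54% (5.40 to 13.3, 199 reads) at P2 in eYFP- and eYFP+ cells, and 44.4% (40.2 to 48.7, 522 reads) and 47.3% (43.1 to 51.5, 533 reads) at P60. Both P60 values stood above both P2 values without overlap of the intervals (30.7 and 38.7 points, adjusted p = 7.20e-19 and 1.11e-23, Fisher's exact test). Like chr9:107322382-107322798 and chr9:107303730-107303873 below, this HMR was found in P2 pools alone and so was chosen for a low level at P2. Further HMRs of intron 2 were called in both subtypes. Their levels were 26.9% and 25.7% at P2 against 56.3% and 54.2% at P60 at chr9:107322382-107322798, and 16.8% and 9.73% against 28.0% and 26.3% at chr9:107330225-107330729. The HMR at chr9:107303730-107303873, absent from every library, had 27.5% and 24.4% against 47.8% and 53.4%. An HMR overlapping a coding exon, chr9:107399053-107399555, had 19.6% and 15.3% against 36.1% and 34.1%, and was still called as an HMR in 5 of 8 P60 libraries. In eYFP- pools alone, chr9:107361498-107361951 in intron 3 was called, with 12.4% against 25.4%, beside 13.7% and 21.2% in eYFP+ pools. Not every intronic HMR was called: chr9:107333973-107334210 in intron 2, present in all 12 libraries, had 16.5% and 8.50% at P2 and 17.9% and 14.2% at P60. The sequences of the intron 3 HMR and of this uncalled region are shown because they lie in the same gene and differ in their stage values. They are on the plus strand, 5′ to 3′, with every CpG in capitals, and each runs 1 base past the deposited end so that its last CpG is whole.
Cacna2d2 intron 3, chr9:107356811-107357042, 11 CpGs, higher at P60: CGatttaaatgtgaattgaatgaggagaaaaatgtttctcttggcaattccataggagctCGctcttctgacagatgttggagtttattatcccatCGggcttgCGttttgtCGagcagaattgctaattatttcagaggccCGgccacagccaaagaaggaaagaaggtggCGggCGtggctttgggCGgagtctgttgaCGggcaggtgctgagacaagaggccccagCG
Cacna2d2 intron 2, chr9:107333973-107334211, 12 CpGs, not called: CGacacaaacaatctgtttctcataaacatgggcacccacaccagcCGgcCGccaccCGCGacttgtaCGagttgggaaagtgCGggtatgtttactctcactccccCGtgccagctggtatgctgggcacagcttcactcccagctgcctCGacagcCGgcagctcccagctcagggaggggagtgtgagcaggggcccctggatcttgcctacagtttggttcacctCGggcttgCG

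The number of CpGs in these stretches, 11 in 232 bases and 12 in 239 bases, was 0.806 and 0.549 of that expected from their base composition.

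Cacna2d3 encodes α2δ-3, known from neurons and from hearing and pain in mice, and is the longest gene of the set with 818 kb. The first start (chr14:29444600, minus strand) was at 0.903% and 0.780% at P2 and at 1.13% and 1.17% at P60, inside the HMR chr14:29441997-29445588 with 234 CpGs at 2.16%, 2.48%, 2.80% and 2.85%. A start 753 kb downstream, used by 1 coding transcript, was methylated at 77.2% and 78.3% at P2 and at 67.9% and 69.3% at P60, and lay 14004 bp from the nearest HMR. With 21 HMRs the gene had the most regions of the set and few calls: 4 higher in eYFP-, 3 higher in eYFP+ pools and 1 lower in both. At chr14:29321438-29321754 in intron 2, 8 CpGs had 8.07% (interval 5.17 to 12.4, 223 reads) and 5.53% (3.19 to 9.42, 217 reads) at P2 and 51.9% (46.2 to 57.5, 295 reads) and 50.2% (44.7 to 55.6, 317 reads) at P60. This is a rise of 43.8 and 44.6 points in the pools (adjusted p = 1.43e-26 and 2.17e-29, Fisher's exact test), with the HMR called in 4 of 4 P2 and 0 of 8 P60 libraries. Also in intron 2, chr14:29388775-29389379 had 19.2% and 15.8% at P2 against 52.9% and 55.6% at P60. In intron 3, chr14:29242101-29242535 had 11.2% and 15.8% against 35.2% and 28.7%. The HMRs at chr14:29321438, chr14:29388775 and chr14:29242101 were found in P2 pools alone and so were chosen for a low level at P2. The HMR chr14:29270557-29270906, in no library, was called in eYFP- pools alone, with 5.07% and 15.1%, while its eYFP+ values were 6.25% and 8.38%. It was an HMR of every pool but P60 eYFP-, so its choice was not free of the eYFP- stage difference. Whether the stage change differs between subtypes at this region was not tested.

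The opposite direction was seen at chr14:28795625-28795834 in intron 17 of Cacna2d3. Its 5 CpGs had 17.8% (interval 12.2 to 25.1, 135 reads) and 28.2% (21.1 to 36.7, 124 reads) at P2 and 5.26% (2.88 to 9.42, 190 reads) and 12.5% (8.61 to 17.8, 200 reads) at P60. This was the only HMR of the 89 that was called lower, by 12.5 points in eYFP- and 15.7 points in eYFP+ pools (adjusted p = 0.00117 and 0.00190, Fisher's exact test), and it was called as an HMR in no library. It was an HMR of P60 pools alone and so was chosen for a low level at P60, and its call and p-values support nothing further. The sequences of this HMR and of that at chr14:29321438 in intron 2 are shown because their levels differed in opposite directions between the ages within a single gene. They are given 5′ to 3′ on the minus strand of mm39, with CpGs in capitals, and the stretch of intron 2 is the part of its HMR with the most CpGs in 300 bases.
Cacna2d3 intron 2, chr14:29321438-29321737, 7 CpGs, higher at P60: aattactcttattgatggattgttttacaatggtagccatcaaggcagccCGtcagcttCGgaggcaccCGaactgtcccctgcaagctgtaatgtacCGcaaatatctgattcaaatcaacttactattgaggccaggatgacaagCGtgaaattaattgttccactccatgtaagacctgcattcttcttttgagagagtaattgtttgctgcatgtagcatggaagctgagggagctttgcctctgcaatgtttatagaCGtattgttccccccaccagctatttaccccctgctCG
Cacna2d3 intron 17, chr14:28795625-28795835, 5 CpGs, lower at P60: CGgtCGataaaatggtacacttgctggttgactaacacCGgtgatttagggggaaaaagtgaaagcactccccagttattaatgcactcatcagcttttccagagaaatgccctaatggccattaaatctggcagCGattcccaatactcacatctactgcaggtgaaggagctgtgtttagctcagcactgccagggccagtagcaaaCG

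Cacna2d4 encodes α2δ-4, the form of photoreceptor synapses. Its only coding start (chr6:119213408, plus strand) was methylated, at 62.2% (interval 56.9 to 67.2) and 70.6% (65.7 to 75.1) at P2 and at 75.3% (72.2 to 78.2) and 67.1% (63.2 to 70.8) at P60. The nearest HMR lay 30672 bp away. It was thus the only gene of the set without an HMR at any coding start. All the same, 5 of its 8 HMRs were called higher at P60 in eYFP+ and 4 in eYFP- pools, the 4 being shared, and over all its HMRs the level was 11.1% and 13.2% at P2 against 25.7% and 25.2% at P60. Neighbouring HMRs near intron 26 carried this at the level of libraries. The first, chr6:119305847-119306725, lies over a coding start of Lrtm2, a leucine-rich repeat gene inside Cacna2d4, and had 15.9% and 15.1% at P2 against 44.4% and 42.3% at P60. The second, chr6:119309143-119311002, overlaps an exon and had 16.2% and 18.9% against 37.0% and 34.8%. Both were called in all 4 P2 libraries and in no P60 library. Between them, chr6:119307140-119307992 with 41 CpGs also lies over a coding start of Lrtm2. It had 3.73% and 5.84% at P2 against 9.20% and 10.8% at P60, was not called and was present in all 12 libraries. The HMR chr6:119244080-119244722 had 17.8% and 16.2% at P2 against 55.9% and 51.4% at P60, and chr6:119329483-119329821 just past the gene 11.4% and 18.5% against 58.7% and 47.4%, neither being called in any library. At chr6:119325061-119325742 the call was confined to eYFP+ pools (17.6% against 29.1%), the eYFP- values being 22.1% and 29.1%. All 5 called HMRs of the gene were found in P2 pools alone and so were chosen for a low level at P2. The 300 bases with the most CpGs of the region near intron 26 are shown on the plus strand, with CpGs in capitals, since they lie in a gene whose start had no HMR at either age.
Cacna2d4, chr6:119309875-119310174, 8 CpGs, higher at P60: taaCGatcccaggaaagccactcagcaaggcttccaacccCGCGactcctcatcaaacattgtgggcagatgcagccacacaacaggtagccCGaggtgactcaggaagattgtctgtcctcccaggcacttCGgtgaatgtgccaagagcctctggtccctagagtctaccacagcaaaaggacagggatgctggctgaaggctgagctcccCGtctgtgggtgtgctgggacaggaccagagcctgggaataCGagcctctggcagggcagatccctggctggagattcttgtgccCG

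Among the β subunit genes, Cacnb1, which encodes the subunit of skeletal muscle excitation-contraction coupling, had the fewest calls. Its main start (chr11:97913488, minus strand) was at 1.01% and 0.726% at P2 and at 1.36% and 0.892% at P60, inside chr11:97912446-97914300, which had 3.09%, 2.25%, 3.78% and 3.22% and was present in all 12 libraries. The other start, 1690 bp from the nearest HMR, was methylated at 79.6% to 83.8% in the 4 pools. Of its 7 HMRs 2 were called, in both subtypes. At chr11:97910888-97911297 in intron 1 the levels were 21.9% and 25.1% at P2 against 49.5% and 47.7% at P60, with no library call. At chr11:97892049-97892275, over the last exon, they were 29.9% and 23.8% against 42.3% and 43.8%. Both called HMRs were found in P2 pools alone and so were chosen for a low level at P2. The 3 HMRs of this small gene and its neighbours that were present in all libraries lie over coding starts, 1 of Cacnb1 itself and the others of Arl5c and Rpl19.

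Cacnb2 encodes the subunit that predominates in the heart and is also expressed in β cells. It has 5 groups of coding starts, the most of the set. The first (chr2:14609117, plus strand), used by 1 transcript, had 0.355% and 0.842% at P2 and 0.333% and 0.536% at P60. The start of the canonical transcript lies 271 kb into the gene at chr2:14878480 and had 26.0% (interval 22.0 to 30.4, 416 reads) and 23.7% (19.8 to 28.1, 401 reads) at P2 and 60.5% (56.6 to 64.3, 620 reads) and 56.9% (52.9 to 60.8, 603 reads) at P60. So the canonical start stood between a low and a high level at P2 and above 50% at P60, in both subtypes. The next start downstream had 51.0% and 44.6% at P2 against 75.6% and 66.5% at P60, and those at 221 kb and 358 kb had 51.7% to 78.9% over the 4 pools. The starts as such were compared only through the HMRs near them.

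The HMR chr2:14878625-14879026 begins 145 bp after the canonical start of Cacnb2 and overlaps coding exon sequence. Its 17 CpGs had 20.9% (interval 17.2 to 25.1, 402 reads) and 16.2% (12.9 to 20.3, 382 reads) at P2 and 56.9% (52.9 to 60.8, 596 reads) and 52.6% (48.5 to 56.6, 588 reads) at P60. The next HMR, chr2:14880208-14880801 in intron 2, had 20.1% and 15.9% at P2 against 56.7% and 58.5% at P60. In both regions the P60 level was at least 36.0 points higher (adjusted p between 8.84e-30 and 6.76e-19 in Fisher's exact test over the 4 comparisons), and both were called in 4 of 4 P2 and 0 of 8 P60 libraries. By contrast, the HMR over the first start, chr2:14607908-14611356 with 138 CpGs, had 3.29% and 4.42% at P2 and 1.70% and 1.60% at P60 and was present in all 12 libraries. Of the 10 HMRs 5 were called higher in eYFP- and 4 in eYFP+ pools. The others were chr2:14661575-14662418 with 15.6% and 18.8% against 38.2% and 38.3%, and chr2:14744630-14745987 with 18.2% and 19.8% against 29.0% and 33.6%. The latter was still an HMR in all 12 libraries. At chr2:14893436-14894315 only the eYFP- pools gave a call, 14.2% against 27.1%, beside 22.8% and 24.3% in eYFP+ pools. The HMRs at chr2:14878625, chr2:14880208 and chr2:14661575 were found in P2 pools alone and so were chosen for a low level at P2.

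Sequence just upstream of the first start of Cacnb2 and of the HMR in intron 2 is shown because the first stayed low at both ages and the second was higher at P60. Both are on the plus strand of mm39, 5′ to 3′, with CpGs in capitals.
Cacnb2 upstream of the first start, chr2:14608817-14609116, 35 CpGs: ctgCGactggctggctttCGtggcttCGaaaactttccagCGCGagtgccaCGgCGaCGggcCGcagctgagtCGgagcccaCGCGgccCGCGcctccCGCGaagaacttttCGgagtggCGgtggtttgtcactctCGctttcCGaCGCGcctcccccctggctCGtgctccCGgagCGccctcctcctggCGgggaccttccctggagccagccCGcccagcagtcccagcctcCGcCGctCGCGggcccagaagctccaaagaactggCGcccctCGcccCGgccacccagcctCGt
Cacnb2 intron 2, chr2:14880358-14880657, 5 CpGs: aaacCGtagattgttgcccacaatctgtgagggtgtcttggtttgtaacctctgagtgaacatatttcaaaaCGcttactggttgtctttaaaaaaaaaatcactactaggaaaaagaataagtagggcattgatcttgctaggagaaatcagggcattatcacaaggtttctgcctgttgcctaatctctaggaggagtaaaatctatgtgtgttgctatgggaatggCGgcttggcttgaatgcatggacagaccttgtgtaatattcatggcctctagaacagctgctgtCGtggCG

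The stretch before the first start was 71.0% G and C with 0.951 of the expected CpG content and had 0.145% and 1.41% methylated reads at P2 and 0.366% and 0.543% at P60. The printed stretch of intron 2 had 12.9% and 14.1% at P2 and 54.8% and 51.6% at P60.

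**Figure D3:**
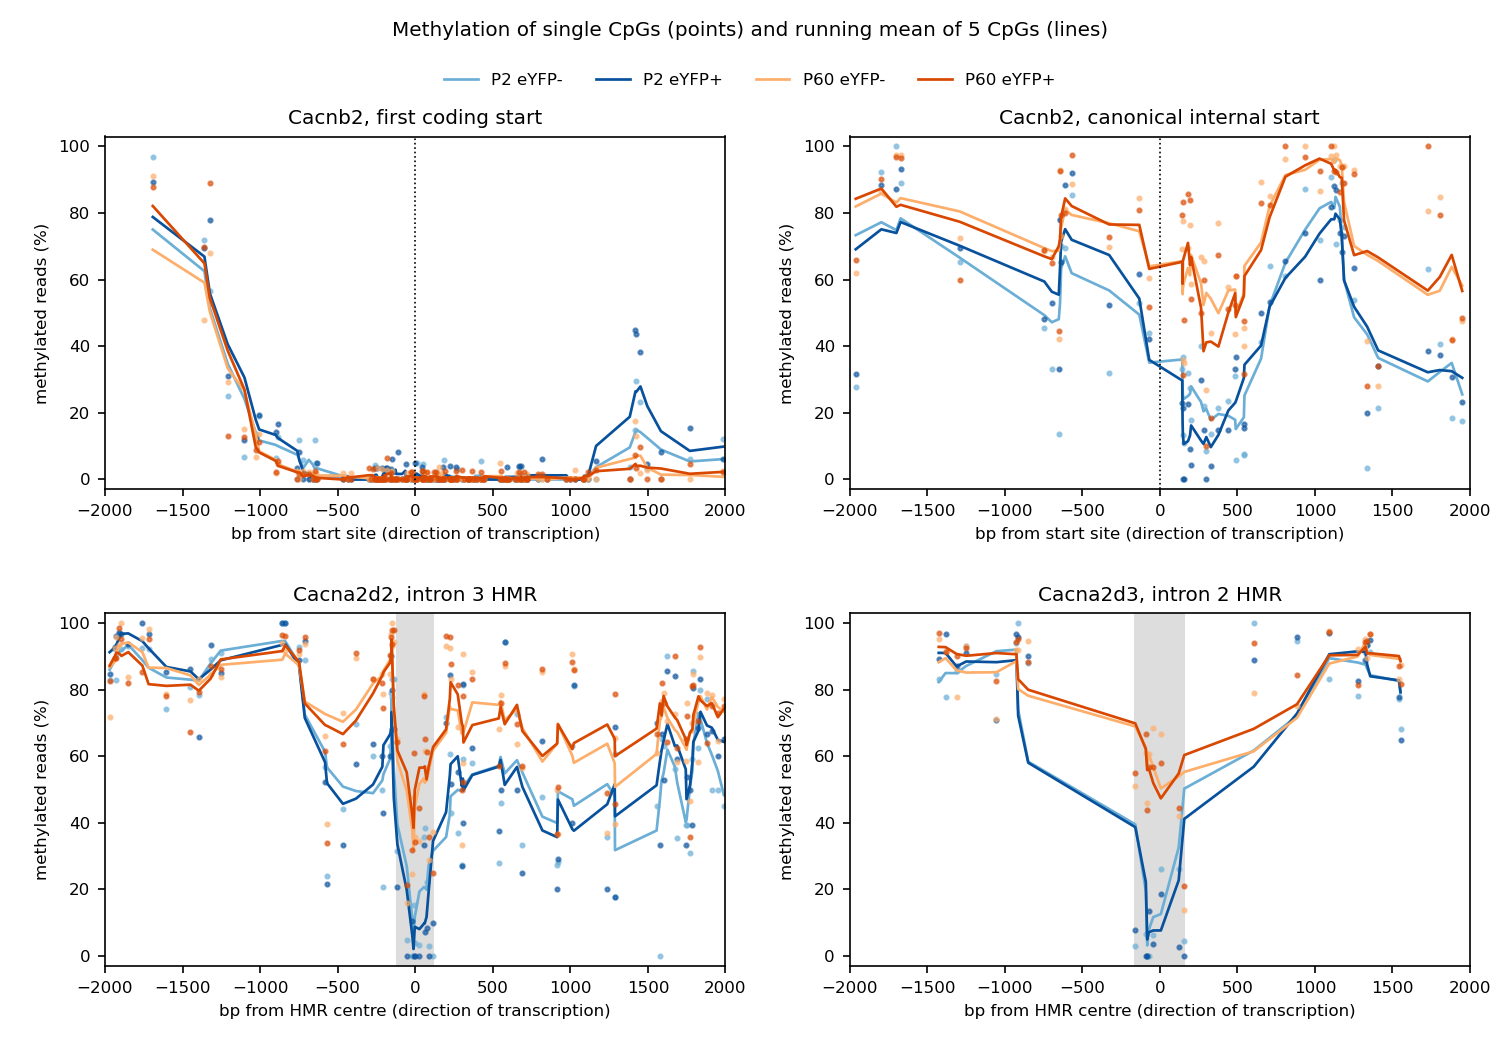
Level of each CpG (points, methylated reads in percent) and its running mean over 5 CpGs (lines) in the 4 pools, against the distance in bp in the direction of transcription, at the first and at the canonical start of Cacnb2 and around the HMRs in intron 3 of Cacna2d2 and intron 2 of Cacna2d3. The grey band is the merged HMR. At the first start all pools stay near 0, and at the other places the P2 lines dip below those of P60.

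Cacnb3 encodes a β subunit whose loss in mice is known to alter calcium oscillations of β cells. Both of its starts lie in a single HMR, chr15:98529134-98534047, the longest of the set with 4914 bp. The canonical start (chr15:98532533, plus strand) was at 0.754% and 1.06% at P2 and at 0.727% and 0.685% at P60, and the other at 3.11% to 3.52% in the 4 pools. The HMR itself had 4.36% and 4.59% against 6.66% and 6.29%, under the size needed for a call. Upstream, chr15:98526372-98527117 was called in both subtypes, with 21.7% and 18.9% at P2 against 33.8% and 32.5% at P60, and chr15:98538188-98538310 over an exon with 22.2% and 17.5% against 40.3% and 39.9%. The HMR chr15:98520294-98520903 passed in eYFP+ pools alone, with 17.5% against 28.1%, while the eYFP- difference of 8.64 points missed the size required. Both upstream HMRs were called in 4 of 4 P2 libraries and in 1 of 8 P60 libraries. The HMR over an exon at chr15:98538188-98538310 was found in P2 pools alone and so was chosen for a low level at P2. That at chr15:98526372 was an HMR of every pool but P60 eYFP+, so its choice was not free of the eYFP+ stage difference.

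Cacnb4 encodes the brain subunit that is lost in lethargic mice. The first start (chr2:52566843, minus strand) was at 3.59% and 4.91% at P2 and at 7.43% and 7.51% at P60, inside chr2:52564690-52567224, which had 2.44%, 2.77%, 4.15% and 4.18%. The canonical start, 118 kb farther on and 32437 bp from any HMR, was methylated at 60.4% and 62.5% at P2 and at 67.8% and 65.1% at P60. The subtypes differed most in their number of calls here, with 6 of 16 HMRs called higher in eYFP- and 2 in eYFP+ pools, although the test of the difference over all HMR reads of the gene gave no call, as described further on. The HMRs called in both were chr2:52331728-52332226 in intron 11, with 13.2% and 15.2% at P2 against 46.1% and 44.1% at P60, and chr2:52493479-52494593, with 21.7% and 15.6% against 41.4% and 31.5%. The largest difference called in eYFP- pools alone was at chr2:52324706-52324903, with 20.4% at P2 against 42.8% at P60 (22.4 points, adjusted p = 8.33e-08, Fisher's exact test), beside 34.9% against 39.8% in eYFP+ pools (4.92 points, adjusted p = 0.352, Fisher's exact test). Others were chr2:52514064-52514527, with 4.17% and 17.9% in eYFP- and 9.38% and 18.3% in eYFP+ pools, and chr2:52401980-52402275, with 22.7% and 33.3% in eYFP- and 29.9% and 36.2% in eYFP+ pools. In these the eYFP+ difference had the same sign and was under the size required, and that of chr2:52401980-52402275 also missed the threshold (adjusted p = 0.219, Fisher's exact test). Whether the stage change differs between the subtypes at these single regions was not tested. The HMR at chr2:52324706-52324903 belonged to the P2 eYFP- pool and to no other pool, so a low eYFP- level at P2 was part of its choice. Those at chr2:52331728, chr2:52493479 and chr2:52401980 were found in P2 pools alone and so were chosen for a low level at P2.

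Between the subtypes the auxiliary subunit genes differed little. At P2 a single HMR of 88 was called, 1.14% higher in eYFP+ pools beside 0.897% of all merged HMRs, and none lower beside 0.479% of all. It was chr2:52324706-52324903 over exon sequence near the end of Cacnb4, where 6 CpGs had 20.4% (interval 15.6 to 26.2, 221 reads) in eYFP- and 34.9% (28.8 to 41.5, 212 reads) in eYFP+ pools, a difference of 14.5 points (adjusted p = 0.0401, Fisher's exact test). At P60 the same region had 42.8% and 39.8%, and it was called as an HMR in no library. The region was an HMR of the P2 eYFP- pool alone, so it was chosen for a low level in that pool. Its call and p-value describe it and support nothing further. At P60 no HMR of 89 was called, beside 0.392% higher and 0.432% lower over all merged HMRs. In Fisher's exact test 12 HMRs at P2 and 10 at P60 had an unadjusted p under 0.05. The nearest to a call at P60 was chr2:52493479-52494593 of Cacnb4, with 41.4% (interval 38.3 to 44.5) in eYFP- and 31.5% (28.5 to 34.6) in eYFP+ pools, a difference of -9.87 points (adjusted p = 0.00296, Fisher's exact test) and so just under the size required. At P2 its values were 21.7% and 15.6%. The median absolute difference between subtypes was 1.99 points at each age over the members, beside 2.17 points at P2 and 1.69 points at P60 over all merged HMRs.

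Differentially methylated regions were also rebuilt as the study defines them, as the part of an HMR of a subtype outside the HMRs of the other with at least 50 bp and at least 2 CpGs whose probability of a difference, recomputed from the counts, was under 0.05 or over 0.95. No correction for multiple tests enters this rule, and the same reads choose the regions and give their levels. At P2, 3 of 89 HMRs held such a region, beside 4.64% of all merged HMRs, and at P60 none did, beside 2.67%. The regions were the Cacnb4 HMR described above, lower in eYFP- cells, the end of the HMR over the first start of Cacnb2 (chr2:14611103-14611356), lower in eYFP- cells at 24.2% against 41.2%, and an HMR of Cacna2d3 (chr14:29429558-29429723), lower in eYFP+ cells at 27.9% against 37.1%. At P60 the Cacna2d3 region had 33.4% in eYFP- and 33.2% in eYFP+ pools, and the Cacnb2 region 15.8% in eYFP- and 12% in eYFP+ pools, the order opposite to that at P2.

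The change from P2 to P60 over all HMR reads of a gene was compared between the subtype pools with a two-sided Wald test, adjusted over 18264 genes. None of the 8 genes was called (adjusted p from 0.171 for Cacna2d4 to 0.817 for Cacna2d1), beside 5.80% of all genes. For Cacna2d4 the eYFP+ change was 2.61 points smaller, 13.2% to 25.2% against 11.1% to 25.7%, and for Cacnb4, with its unequal number of calls, it was 0.523 points smaller. With the reads of all CpGs in a gene's window in place of those in HMRs, 7 of the 8 genes were called, beside 28.1% of all genes and a median of -0.874 points over all genes, with Cacnb1 at -3.19 and Cacnb3 at 3.80 points.

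At single CpGs the stage difference was again the larger. Of 19298 CpGs of the windows with at least 10 reads in both eYFP- pools, 191 were higher and 3 lower at P60 (1.01% in all, beside 0.723% of CpGs of the genome) in Fisher's exact test adjusted over all CpGs. In eYFP+ pools 147 of 19292 were higher and 12 lower (0.824%, beside 0.722%). Cacna2d3 had 39 calls and Cacna2d1 37 in eYFP- pools, of 5980 and 2814 CpGs tested (0.652% and 1.31%), whereas Cacnb3 had 1 of 724 (0.138%). The share of Cacna2d3 was thus below the genome's 0.723%, and Cacnb2 had the highest share of the set, 1.48%. Of the calls in Cacna2d3 and Cacna2d1, 9 and 8 lay inside an HMR. The other calls of these genes lay outside, in DNA whose level was 75.2% to 84.5% at P60 in the eYFP- pool. In Cacna2d4 the larger part of the calls lay in HMRs, with 10 of 16 in eYFP- and 10 of 17 in eYFP+ pools, and in Cacnb2 9 of 36 and 16 of 28 did. Between the subtypes no CpG of the windows was called, of 19205 at P2 (beside 1.04e-05% of all CpGs) and 19492 at P60 (5.05e-06%), while 511 and 591 had an unadjusted p under 0.05 in Fisher's exact test.

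The deposited HMRs of single libraries allowed a comparison of stages over 4 P2 and 8 P60 libraries, although they come from the same DNA as the pools and are no independent support for them. Of the 89 HMRs 30 were present in all 12 libraries (33.7%, beside 35.2% of all merged HMRs) and 16 in none (18.0%, beside 15.5%). Those in all libraries had a median length of 1064 bp and those in none of 317 bp. A further 6 HMRs were present in all 4 P2 libraries and in none of the 8 P60 libraries, which is 6.74% of the members beside 5.27% of all merged HMRs, and none was called in the other direction, beside 0.0627% of all. They were those described above in intron 3 of Cacna2d2, intron 2 of Cacna2d3, near intron 26 of Cacna2d4 (2 HMRs) and at the canonical start of Cacnb2 and in its intron 2. All 6 were HMRs of P2 pools alone, so a low level at P2 was part of their choice. Each had an adjusted p of 0.0379 in a two-sided Fisher's exact test of presence over the libraries, which rests on the smallest p that 4 against 8 libraries allow, 0.00202. That test takes each library as separate, without pairing by replicate number, so its p-values may be too small. The absence of these 6 HMRs from both P60 projects follows from the pattern they were picked for and is no further support. With P60 replicates 1 and 2 alone and with P60 replicates 3 and 4 alone, the adjusted p was 0.440 and 0.430 in the exact test. Its smallest p with 4 P60 libraries is 0.0286. Leaving out any single library ended the calls, with adjusted p from 0.0531 to 0.106 for these 6 HMRs in the exact test, and leaving out both P2 eYFP- libraries gave 0.268. Where a library's HMRs had to cover at least 50% of the region, the second HMR of Cacna2d4, chr6:119309143-119311002, lost its call (adjusted p = 0.150 in the exact test) and the other 5 kept theirs. Of the 37 HMRs called in the pools of either subtype, 9 were present in no library, 2 in all 12, 8 in all P2 and in 1 to 6 P60 libraries, and none in a larger share of P60 than of P2 libraries.

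**Figure D4:**
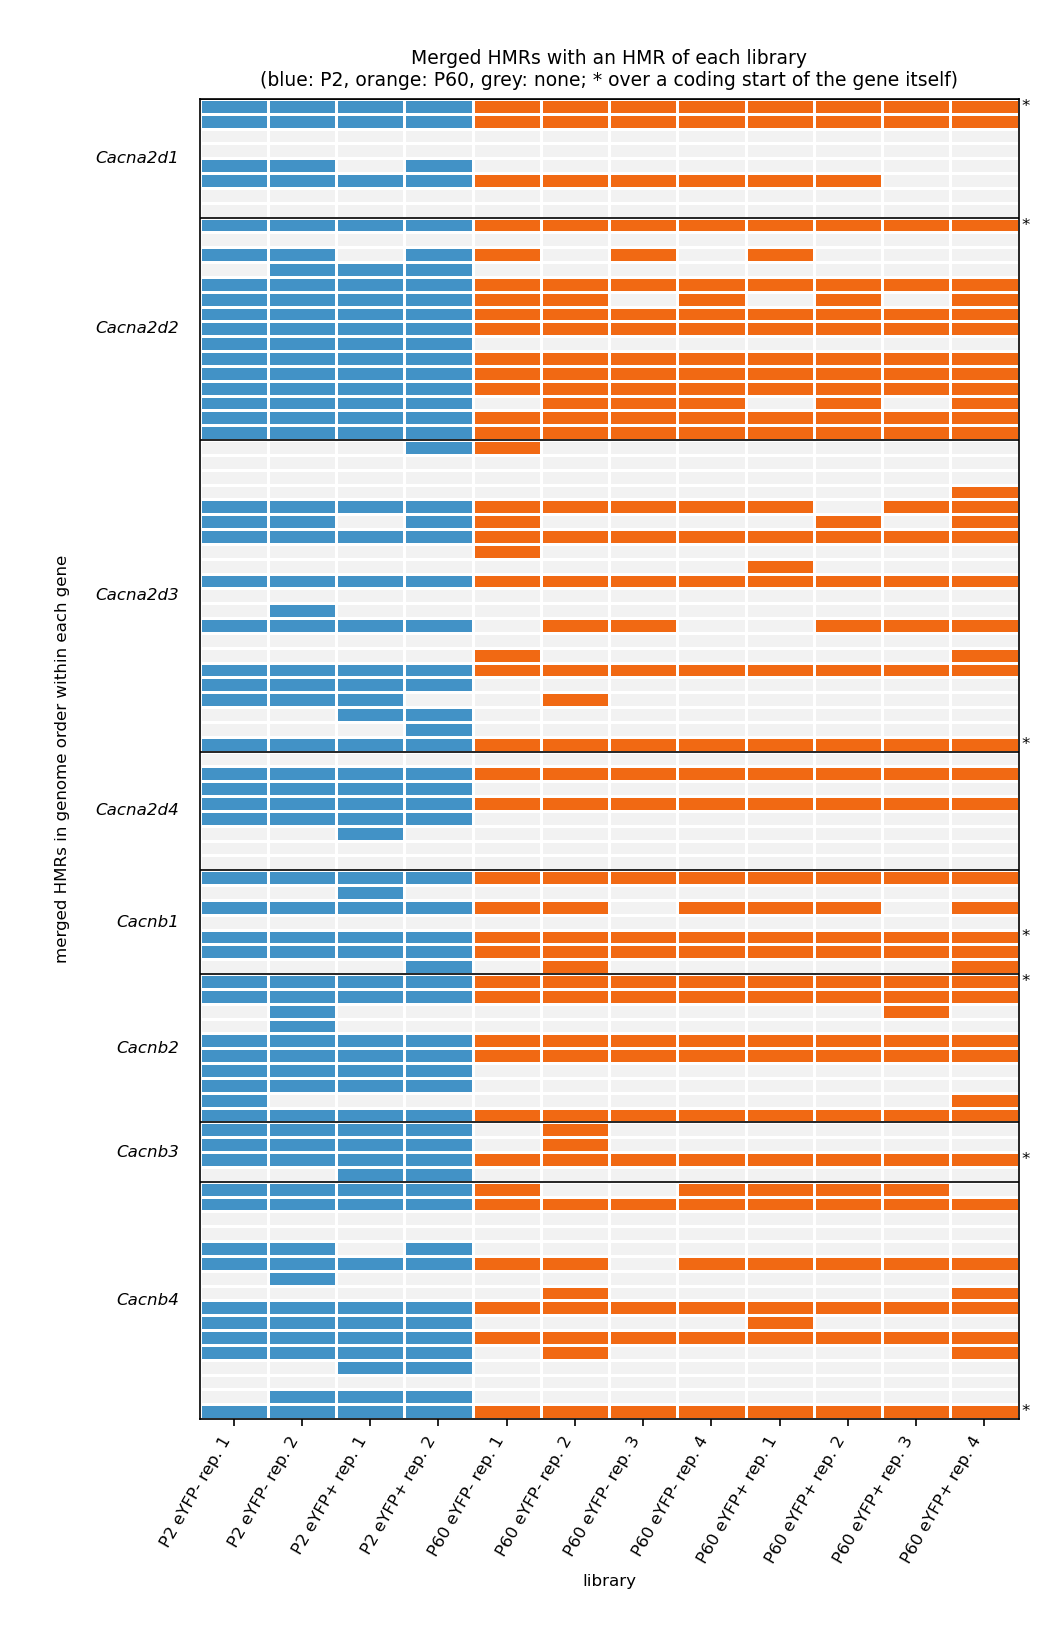
Presence of the 89 merged HMRs of the 8 genes (vertical axis, in genome order within each gene) in each of the 12 libraries (horizontal axis), with a blue cell for an overlapping HMR in a P2 library, an orange cell for a P60 library and grey for none. A star marks the HMRs over a coding start of the gene itself, which are filled in every library, and 6 HMRs are filled in the 4 P2 libraries and empty in the 8 P60 libraries.

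The share of each gene's window inside HMRs was divided by the share of the genome inside HMRs in the same library, so that 1 stands for the genome's average. Between P2 and P60 libraries 4 of the 8 genes were called in a two-sided exact permutation test adjusted over all genes, 3 lower at P60 beside 10.4% of all genes and 1 higher beside 28.8%. The test took each library as separate and did not pair those of equal replicate number, so its p-values may be too small. Cacna2d4 had 1.08 and 1.52 in the P2 eYFP- and 1.74 and 1.33 in the P2 eYFP+ libraries, against 0.417, 0.437, 0.500 and 0.422 in the P60 eYFP- and 0.403, 0.407, 0.484 and 0.447 in the P60 eYFP+ libraries. Every P2 library stood above every P60 library (means 1.42 ± 0.277 and 0.440 ± 0.0356, SD, n = 4 and 8, adjusted p = 0.00787, exact permutation test). Cacnb3 fell from 8.48 ± 0.386 to 6.79 ± 0.727 and Cacnb4 from 2.06 ± 0.0576 to 1.74 ± 0.151 (SD, n = 4 and 8, adjusted p = 0.0138 for each, exact permutation test), again with no overlap of ranges, 7.90 to 8.70 against 5.89 to 7.79 and 1.99 to 2.13 against 1.45 to 1.95. The call of Cacnb3 was lost without the flanks, where the difference was -0.121. Cacnb1 had 7.01 ± 0.367 against 7.89 ± 0.235 (SD, n = 4 and 8, adjusted p = 0.00787, exact permutation test), which is higher at P60 relative to the genome but 1.62 points lower when its percent was not divided. The other genes were not called: Cacna2d1 with 0.451 against 0.499, Cacna2d2 with 3.30 against 3.20, Cacna2d3 with 0.439 against 0.424 and Cacnb2 with 1.06 against 1.05. Without the division all 8 genes were called lower at P60, and of all genes called the share called higher went from 73.6% to 2.72%. Without both P2 eYFP- libraries none of the 4 calls remained, as for every other gene of the genome. Between eYFP+ and eYFP- libraries at P60 no gene of the 8 was called (raw p from 0.171 for Cacnb2 to 0.943 for Cacna2d2, exact permutation test), beside 0% of all genes. The smallest p of 4 against 4 libraries is 0.0286, and 244 genes (1.12%) had a raw p under 0.05 in this permutation test. A call after adjustment over all genes was thus out of reach, and the absence of calls does not show equal coverage.

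**Figure D5:**
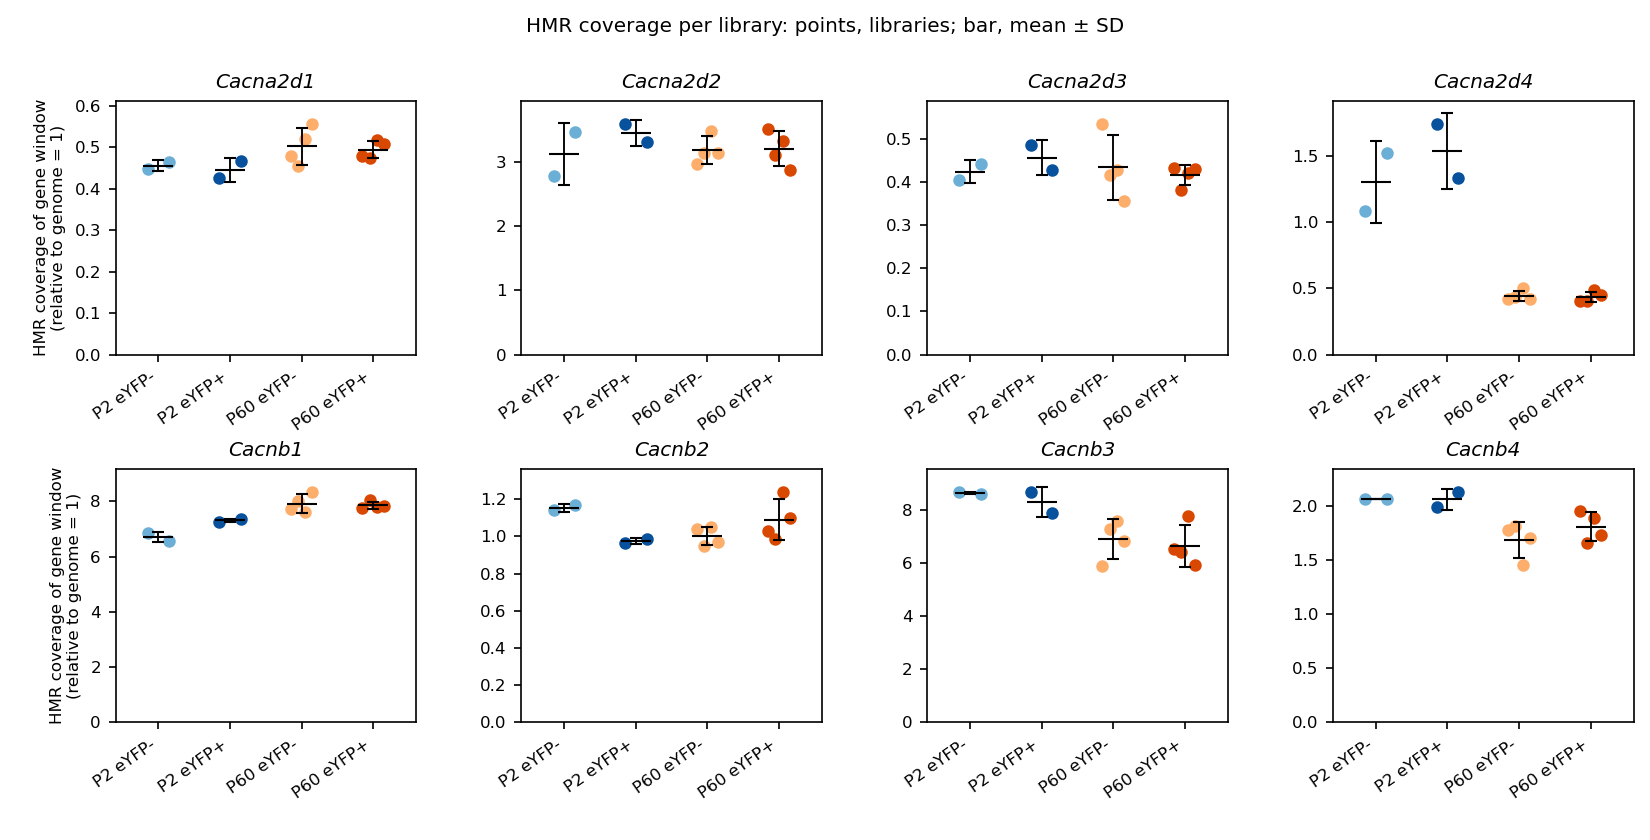
HMR coverage of each gene's window relative to that of the genome (1 is the genome's average), with a point per library and a bar for the mean ± SD of each group (2 libraries per subtype at P2, 4 at P60). The P60 points of Cacna2d4, Cacnb3 and Cacnb4 lie below their P2 points; those of Cacnb1 lie above them on this relative scale, while undivided its P60 mean is 1.62 points lower.

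Genes whose relative coverage moved most like that of a member over the 12 libraries were sought among genes with an HMR in every library and a window that does not overlap the member's. They were Ankrd11 and Alpk3 for Cacna2d4 (Pearson r = 0.992 and 0.990), Sec14l5 and Simc1 for Cacna2d1 (0.920 and 0.916), Chic2 and Afg1l for Cacna2d2 (0.898 and 0.896) and Glb1 for Cacna2d3 (0.866). For the β subunits they were Fam186a and Retreg3 for Cacnb1 (0.960 and 0.933), Gpr132 and Abi1 for Cacnb2 (0.873 and 0.847), Cpne5 and Prkcz for Cacnb3 (0.940 and 0.939) and Cdk20 and Gm49948 for Cacnb4 (0.961 and 0.933). These are the best of 16462 to 16466 genes for each member, the 12 libraries share stage and depth, and no test was made.

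The other subunits and partners of the channel gave a background for these counts. The pore-forming α1 genes, 10 in number, held 147 HMRs, of which 48 (32.7%) were called higher at P60 in eYFP- and 47 (32.0%) in eYFP+ pools. The 4 α2δ genes had 18 of 52 in each (34.6%), and the 4 β genes 15 of 37 (40.5%) in eYFP- and 11 (29.7%) in eYFP+ pools. The 8 γ genes, related to AMPA receptor and muscle channel subunits, had 4 of 30 in each. The 4 RGK GTPases, which bind β subunits and inhibit the channels, had 3 and 1 of 12, and the 3 Stac adaptors 6 and 2 of 12. Over all 25 of these genes the share was 30.3% in eYFP- and 26.9% in eYFP+ pools, with 4 and 6 HMRs lower. Calls between the subtypes were made in the α1 genes, 2 higher and 4 lower in eYFP+ pools at P2 and 1 lower at P60, and in none of the γ, RGK or Stac genes. In the test of the stage change between subtypes only Cacna1f, the retinal L-type α1 on the X chromosome, was called (-4.86 points).

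The motifs of factors known in islet cells were searched on both strands in 200 bp on the centre of each merged HMR. The forkhead motif TGTTTAC was found in 5.62% of the members and 5.58% of all merged HMRs, the MAF motif TGCTGAC in 3.37% and 4.79%, the E-box CAGATG in 18.0% and 18.0%, and the E-box CAGCTG in 19.1% and 15.2%. Of the 6 HMRs present in P2 libraries only, CAGATG was in 2, those of Cacna2d2 and of Cacnb2, CAGCTG in 1 of Cacna2d4, and the other motifs in none of these windows. No test was made on these shares.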

How the data were processed

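DNA of 12 sorted β-cell libraries was sequenced by tagmentation-based WGBS. According to the submitters' processing notes and the study's methods, the authors trimmed reads with Trim Galore 0.6.6 and cutadapt 1.16, used FastQC and SAMtools 1.5, mapped to mm39 with abismal and used MethPipe, whose versions are not given in the sources used here. The deposited tables hold counts of methylated and unmethylated reads per CpG for 2 pools per stage, B1 and B2, taken as eYFP- and eYFP+ cells, and the deposited HMR lists give positions for pools and for each library. Columns with the authors' own probability that a CpG differs, and their lists of candidate differential regions, were not used. Pools had 522523439 to 948851081 reads on CpGs, with a median of 25 to 45 reads per CpG, so levels were summed over regions.

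HMRs of the 4 pools were merged where they overlapped. Reads of a region, or of a CpG where each pool held at least 10, were put to a two-sided Fisher's exact test between pools. Libraries were compared by Fisher's exact tests of presence and exact permutation tests of coverage, each with Benjamini-Hochberg adjustment over all features of the genome (Python 3.11.15, numpy 2.4.6, scipy 1.17.1, pandas 2.3.3, numba 0.67.0, samtools 1.23.1, matplotlib 3.10.9). The tests were tested on simulated data. Genes and starts were those of GENCODE on mm39, and sequences were read from that genome. The members and gene lists were chosen with earlier results of these data known. The text names every merged HMR over a coding start of a member, every HMR called in a pool comparison (for a gene with more than 5, the 5 with the largest absolute difference) and every rebuilt differential region. The genes most alike are the 2 with the highest Pearson correlation, windows that overlap the member being left out after the data were seen. Some items are not reported here. Libraries of a group labelled with different sexes cannot share mice if the labels hold, but nothing states that P60 libraries of the same sex came from separate mice. The p-values of the tests over libraries therefore measure the spread between these libraries. Those of the tests on pooled reads cover counting error only. Libraries of equal replicate number deviated together at P60 (correlations 0.149 to 0.316 across HMRs, all above 0.1) and not at P2 (-0.0174), so the numbers, which also carry sex, were taken to pair the P60 libraries. The tests of stage over libraries did not enter this pairing and took each library as separate, so their p-values may be too small. Alternatives are given in the closing section.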

Additional observations from a re-analysis of the deposited data

How the results depend on the processing

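Of the alternatives to the main results, 61 left the count of calls equal to the main count or within a set ratio of it. Another 22 ended or lowered the count beyond that, and 5 raised it. For single genes and HMRs, 347 kept their side of the threshold, 96 lost a call, 11 gained a call and 4 turned in direction. The 347 include most settings of the P60 subtype comparison of coverage, which were entered as kept without a check. Of 34 HMRs called between stages in eYFP- pools, 19 passed a size of 20 points. In eYFP+ pools 30 became 17 at 20 points and 48 with no size required. The single P2 subtype call was lost (0 HMRs) at 20 points and when only HMRs of at least 200 bp entered, being 198 bp long, and the count of 0 at P60 became 1 with no size required (the Cacnb4 HMR at chr2:52493479-52494593) and 1 with 20 kb flanks, which brought in chr15:98512478-98512669 beside Cacnb3 (29.0% in eYFP- and 15.4% in eYFP+ pools, -13.6 points, adjusted p = 0.000335, Fisher's exact test). The 6 HMRs called by presence became 0 when any 1 library was left out, 0 with P60 replicates 1 and 2 alone, 0 with P60 replicates 3 and 4 alone and, in an alternative chosen after seeing the data, 0 without both P2 eYFP- libraries. Fewer libraries raise the smallest p, and these settings gave no call anywhere in the genome. The 4 genes called by coverage became 8 when not divided by the genome's percent and 0 without both P2 eYFP- libraries, and 4 to 5 when 1 library was left out. Undivided, Cacna2d1 (-0.120 points) and Cacnb1 (-1.62 points) turned from higher to lower at P60. The 3 rebuilt regions became 1 with at least 3 differing CpGs and 1 with at least 200 bp. The test of the stage change between subtypes, with 0 calls, gave 7 with the reads of all CpGs of the window, where Cacna2d1 (-0.956 points) and Cacna2d2 (-1.57 points) turned in direction; the cause was not tested. With the replicate block, which pairs the P60 libraries by number, the subtype comparison of coverage had 0 calls as without it (p from 0.250 to 1.00 for the 8 genes, exact sign-change test). The smallest p possible with the block is 0.125, so it could not give a call. The block was applied to no other comparison.

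Depth limits the values of small regions: the 5 CpGs of the Cacna2d3 HMR called lower had 135 and 124 reads at P2, with intervals of 12.2% to 25.1% and 21.1% to 36.7%. Pools have no replicate error, and the libraries carry positions only.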
